A study of Mus musculus with 21 samples.

Results

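The 2'-5' oligoadenylate synthetase family of the mouse, named Oas, was followed over ovarian follicle development. Of 18 probes named for 11 Oas genes on the array, 8 probes of 7 genes had a detection p-value under 0.05 on at least 3 of 21 arrays, and the members were chosen by that detection value. They are probes for Oas1c, Oas1d (2 probes), Oas1e, Oas1f, Oas1g, Oasl1 and Oasl2, among 25697 probes in all. The number of arrays on which a probe was detected is a description and carries no test. RNA came from CD1 females, amplified and hybridised to 21 Illumina bead arrays, 3 for each of 7 stages. PMD3 and PMD4 were entire ovaries of postnatal day 3 and day 4, rich in primordial follicles. The later groups were isolated follicles. PRIMARY follicles came from day 10 and had a diameter of 70 to 90 µm. Those with 2 granulosa layers (TLS) came from day 12 at 100 to 130 µm, and those with several layers (MLS) from day 16 at 150 to 180 µm. On day 18 the PREANTRAL follicles had reached 200 to 300 µm, and on day 20 the ANTRAL ones 400 to 600 µm. The labels name no genetic change, and the source names of ANTRAL give pregnant mare serum gonadotropin, which stimulates follicle growth. The treatment text of the same labels states that nothing was given, and the labels do not settle which holds. If the hormone was given, it cannot be told apart from stage there. Likewise, whole ovary and isolated follicle cannot be told apart from stage when PRIMARY is set against PMD4.

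Follicles of a stage were pooled and 3 samples taken. Nothing in the labels says that these came from separate animals, so p-values measure only the spread between the samples, which may be technical. Between 12363 and 13953 probes were detected per array and the median signal ran from 91.5 to 143, and the number of arrays limits the precision. PREANTRAL repeat 2 is labelled by source, age and size as antral, and PRIMARY repeat 3 carries the stage tag PMD3. PRIMARY repeat 3 and TLS repeat 2 have ovary as their tissue, unlike the follicles of their groups. The Oas calls, the shifts between paralogs and the gene lists were also computed without each of these arrays, and the values follow beside the main results or where a call was lost. A pair of antral arrays shares a column name, so they are given as ANTRAL a and ANTRAL b. All 16 measured oocyte markers were detected on every PMD3, PMD4 and PRIMARY array, and 12 to 14 of them on the ANTRAL arrays. Levels are on the log2 scale after background correction and quantile normalisation, and a level of one probe cannot be set against that of another.

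Oas enzymes bind double-stranded RNA, a sign of viral infection, and join ATP into 2'-5' linked oligoadenylates, which act as a signal in antiviral defence. Interferons induce many of the family. Rodents carry an expanded cluster of Oas1 paralogs, some of which are known from the oocyte. Oas1d is known as an oocyte-enriched paralog without synthetase activity, which counters Oas1a in the mouse. Oasl1 and Oasl2 carry ubiquitin-like domains. In the mouse, Oasl1 restrains the translation of Irf7, a regulator of interferon genes.

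The 12 Oas genes of the RefSeq annotation lie on chromosome 5 in the order Oasl2, Oasl1, Oas2, Oas3, Oas1e, Oas1c, Oas1b, Oas1f, Oas1h, Oas1g, Oas1a and Oas1d. The paralogs with a clear signal in these samples are therefore not one block. Oas1e and Oas1c were neighbours, at positions 5 and 6, and Oas1d stood at position 12, beyond Oas1b, Oas1f, Oas1h, Oas1g and Oas1a. Both Oas1d probes and the probes of Oas1e and Oasl2 were detected on all 21 arrays, so that for these genes the detection rule favoured no stage. Oas1c was detected on 19 arrays, Oas1g on 17, Oas1f on 8 and Oasl1 on 4. Oasl1 stood just inside the rule, and a probe of Oas1b, on 2 arrays, just outside it. Oas1b, known as a flavivirus resistance gene, is annotated as a transcribed pseudogene in this assembly. Below the rule lay 10 probes. Oas1a, Oas1h and both probes of Oas3 were detected on 0 arrays, as were the other Oas1b probe, the other Oasl1 probe and a second Oas1g probe. The remaining Oas1g probe and the other Oasl2 probe were detected on 1 array each. A probe below detection shows only that no signal was measured above background. Oas2 was not analysed here.

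**Figure D1:**
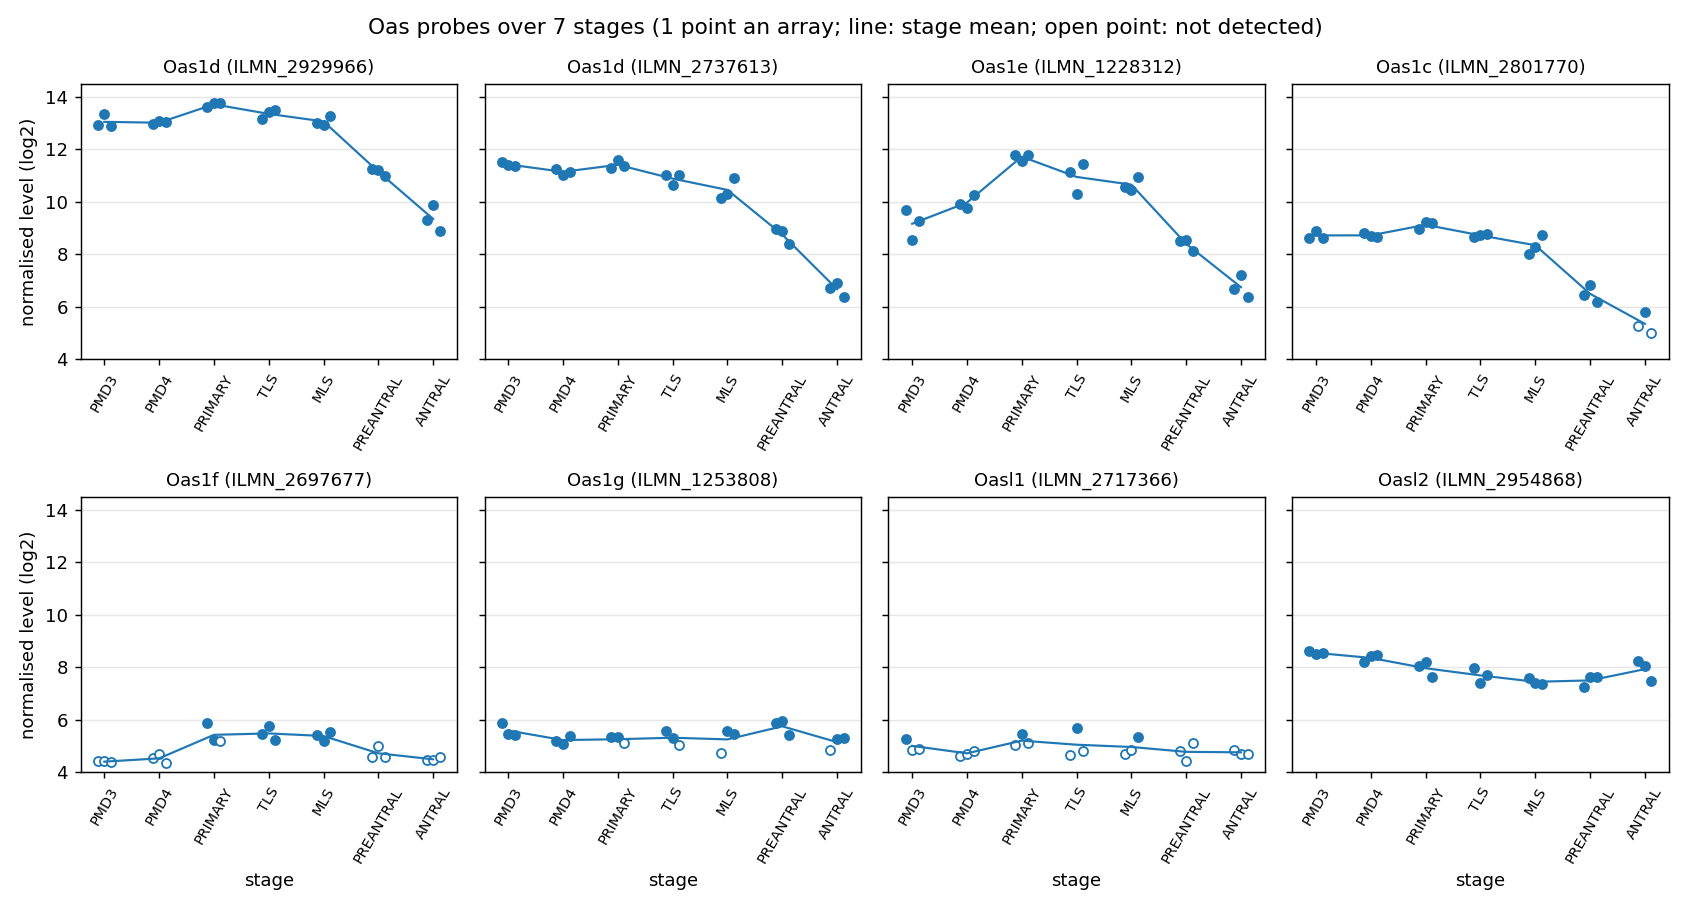
Normalised level (log2) of each of the 8 Oas probes on each of 21 arrays, by stage from PMD3 to ANTRAL, with a line through the stage means and open points for arrays on which the probe was not detected. Oas1d, Oas1e and Oas1c drop in PREANTRAL and again in ANTRAL, Oas1f is detected only in PRIMARY, TLS and MLS, Oas1g and Oasl1 stay near background, and Oasl2 lies between 7.24 and 8.62 throughout.

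In bulk samples fewer cells of a type and less RNA per cell cannot be told apart. Oas1d and Oas1c stayed high through the primordial, primary and secondary stages, Oas1e was high from PRIMARY to MLS, and all dropped in 2 steps, in PREANTRAL and again in ANTRAL follicles. Oas1d, measured with probe ILMN_2929966, stood at 12.91, 13.34 and 12.88 on the PMD3 arrays, at 12.95, 13.06 and 13.03 in PMD4, and at 13.60, 13.75 and 13.78 in PRIMARY. It stood at 13.14, 13.42 and 13.50 in TLS, at 12.99, 12.94 and 13.25 in MLS, at 11.24, 11.22 and 10.98 in PREANTRAL, and at 9.30, 9.87 and 8.88 in ANTRAL. The PRIMARY arrays were above every other array, the arrays of TLS, MLS, PMD3 and PMD4 overlapped, and PREANTRAL and ANTRAL lay below them without overlap. The other Oas1d probe, ILMN_2737613, ran between 10.14 and 11.59 from PMD3 to MLS, between 8.41 and 8.96 in PREANTRAL, and between 6.38 and 6.93 in ANTRAL. Its highest means, in PMD3 and PRIMARY, differed by less than their spread.

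Oas1e, a paralog placed next to Oas1c in the cluster, rose into PRIMARY by more than Oas1c or Oas1d before the fall. Its levels were 9.70, 8.54 and 9.25 in PMD3, 9.91, 9.77 and 10.24 in PMD4, and 11.79, 11.57 and 11.80 in PRIMARY. They were 11.12, 10.29 and 11.43 in TLS, 10.58, 10.45 and 10.93 in MLS, 8.50, 8.56 and 8.15 in PREANTRAL, and 6.66, 7.21 and 6.37 in ANTRAL. PRIMARY was above all other stages, followed by TLS and MLS, which overlapped, then by PMD4. PMD3 came next and touched PREANTRAL, whose highest array was above the lowest of PMD3. ANTRAL a was the highest antral array for Oas1c, Oas1d and Oas1e alike, and its summed signal over 16 oocyte markers was 18907, against 8613 on ANTRAL repeat 1 and 6731 on ANTRAL b.

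Before the preantral stage the means of Oas1c lay between 8.35 and 9.12. It stood at 8.63, 8.90 and 8.62 in PMD3, at 8.82, 8.70 and 8.66 in PMD4, and at 8.98, 9.22 and 9.18 in PRIMARY. It stood at 8.66, 8.73 and 8.78 in TLS, at 8.02, 8.27 and 8.75 in MLS, at 6.45, 6.85 and 6.20 in PREANTRAL, and at 5.26, 5.82 and 4.99 in ANTRAL. PRIMARY was again highest, PMD3, PMD4, TLS and MLS overlapped, and in ANTRAL the probe was detected on ANTRAL a alone.

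The promoter of Oas1c is shown with those of Oas1g, Oas1a and Oasl2 because these genes behaved differently in the ovary while 3 of them share a run of letters. The sequences are RefSeq's for the GRCm38.p6 assembly, from 250 bases before to 50 after the annotated start of transcription, and so come from the reference strain and not from CD1 mice. The interferon-stimulated response element, through which interferon switches genes on, was searched for on both strands by its core, which is GAAA, then any 2 bases (NN), then GAAA, and matches are in capitals. The table held promoters of 8 of the 12 Oas genes, without Oas1b, Oas1d, Oas1e and Oas2.
Oas1c, minus strand of chr5:120812465-120812764, 2 overlapping matches on the opposite strand of the sequence as printed.
Oas1c: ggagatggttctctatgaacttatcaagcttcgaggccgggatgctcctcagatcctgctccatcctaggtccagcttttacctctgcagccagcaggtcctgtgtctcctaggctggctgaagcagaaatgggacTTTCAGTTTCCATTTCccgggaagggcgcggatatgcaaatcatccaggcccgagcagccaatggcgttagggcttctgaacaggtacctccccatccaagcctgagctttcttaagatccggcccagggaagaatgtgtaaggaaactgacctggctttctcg
Oas1g, minus strand of chr5:120887564-120887863, 2 overlapping matches.
Oas1g: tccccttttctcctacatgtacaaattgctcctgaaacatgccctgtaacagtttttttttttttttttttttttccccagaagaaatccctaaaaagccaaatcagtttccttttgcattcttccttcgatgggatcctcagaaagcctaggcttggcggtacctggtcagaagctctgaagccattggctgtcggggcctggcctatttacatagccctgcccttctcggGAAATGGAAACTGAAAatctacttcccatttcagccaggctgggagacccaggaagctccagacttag
Oas1a, minus strand of chr5:120907476-120907775, 2 overlapping matches.
Oas1a: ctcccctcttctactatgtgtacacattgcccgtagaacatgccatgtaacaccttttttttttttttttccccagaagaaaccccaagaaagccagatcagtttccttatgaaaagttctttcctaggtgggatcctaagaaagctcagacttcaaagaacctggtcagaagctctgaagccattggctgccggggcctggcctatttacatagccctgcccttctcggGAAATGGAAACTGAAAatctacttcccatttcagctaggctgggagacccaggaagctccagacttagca
Oasl2, plus strand of chr5:114896684-114896983, no match.
Oasl2: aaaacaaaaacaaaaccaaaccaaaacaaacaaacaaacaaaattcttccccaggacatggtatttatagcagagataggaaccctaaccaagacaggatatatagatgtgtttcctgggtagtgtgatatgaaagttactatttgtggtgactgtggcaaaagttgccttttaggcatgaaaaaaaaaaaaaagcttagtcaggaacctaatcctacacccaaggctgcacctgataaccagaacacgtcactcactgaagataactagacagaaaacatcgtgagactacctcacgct

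In Oas1g the matches form the 16-base run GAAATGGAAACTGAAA, in which the matches overlap by 4 bases, starting 18 bases before the start of transcription. Oas1a has the same run starting 20 bases before its start. Oas1c has the reverse complement of that run, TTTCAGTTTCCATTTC, beginning 114 bases before its start. Among 32851 mouse promoters of the same length, the core was found in 1131, or 3.44%, and the whole run on either strand in 7 promoters of 5 genes, the others being Apol9a and Apol9b. Oas3 has 1 match, and Oasl1, Oasl2, Oas1f and Oas1h have none in this window. TAATTG, an element bound by the oocyte regulator NOBOX, occurs in 8.0% of all promoters and in none of the 8. The E-box CAGGTG occurs in 20.2% of promoters, and of the Oas genes in Oasl2 and Oas1h. These are matches of letters in a window and describe no binding. In these ovaries Oas1c was detected on 19 of 21 arrays, Oas1a on 0, and Oas1g on 17 with 1 probe and on 0 or 1 with the others.

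The transition from primordial follicles of whole ovaries to isolated primary follicles was asked about by setting PRIMARY against PMD4. Oas1e was 3.36-fold higher in PRIMARY, at 11.72 ± 0.13, against 9.97 ± 0.24 in PMD4 (SD, n = 3 each), a difference of 1.75 with a standard error of 0.29 (limma, adjusted p = 6.54e-05). Oas1d was 1.62-fold higher with probe ILMN_2929966, at 13.71 ± 0.09 in PRIMARY, against 13.01 ± 0.06 in PMD4 (limma, adjusted p = 0.0112). With the other Oas1d probe the difference was 0.27 ± 0.20 (SE) and did not pass (limma, adjusted p = 0.373), and Oas1c differed by 0.40 ± 0.21 (limma, adjusted p = 0.171). Of the 7 probes other than Oas1f, which is described apart, 2 rose, where 14.6% of the 15923 probes tested rose. Without PRIMARY repeat 3, Oas1e rose by 1.71 (limma, adjusted p = 0.000555) and Oas1d by 0.66 (limma, adjusted p = 0.042).

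Oas1e gained on its paralogs between these stages. The difference of Oas1e and Oas1d (ILMN_2929966) within an array was -1.99 ± 0.19 in PRIMARY and -3.04 ± 0.25 in PMD4, a shift of 1.05, and the arrays of the groups did not overlap. The difference of Oas1e and Oas1c was 2.60 ± 0.23 in PRIMARY and 1.25 ± 0.29 in PMD4, a shift of 1.35, again without overlap. Without PRIMARY repeat 3 the shifts were 1.05 and 1.34. Among 28 such shifts computed, an exact two-sided permutation test of 3 arrays against 3 cannot go below 0.1, which both reached, or 0.2 after Benjamini-Hochberg adjustment. The 2 probes of Oas1d themselves moved apart by 0.43 in the same comparison, with ILMN_2737613 gaining less. A shift of that size was thus also seen between probes of a single gene. Its arrays did not overlap either, nor did those of Oas1c against Oas1d (ILMN_2929966), a shift of -0.30. Both reached 0.1 as well, so that absence of overlap was not particular to Oas1e. With the authors' log2 values the shift of Oas1e against Oas1d was 0.93, and against Oas1c it was 1.37.

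The growth of secondary follicles into preantral ones was asked about by setting PREANTRAL against MLS. Oas1e was 4.77-fold lower in PREANTRAL, at 8.40 ± 0.22, against 10.65 ± 0.25 in MLS (limma, adjusted p = 9.99e-06). Oas1d was 3.77-fold lower with ILMN_2929966, at 11.15 ± 0.15 in PREANTRAL, against 13.06 ± 0.17 in MLS (limma, adjusted p = 1.38e-06), and 3.25-fold lower with the other probe. Oas1c was 3.60-fold lower, at 6.50 ± 0.33 in PREANTRAL, against 8.35 ± 0.37 in MLS (limma, adjusted p = 2.82e-06). The standard errors of these differences were 0.20 to 0.29. Of the 7 probes other than Oas1f, 4 fell, where 8.45% of all probes fell. Among the probes that changed, 40.9% rose, or 23.8% when arrays were scaled to one median in place of quantile normalisation. Without PREANTRAL repeat 2 the differences were -2.33 (Oas1e), -1.94 and -1.77 (Oas1d) and -2.02 (Oas1c), and all passed. Without background correction that of Oas1c was -1.25, and -0.83 in the authors' values.

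ANTRAL follicles lay lower again than PREANTRAL ones. Oas1d was 4.23-fold lower with ILMN_2737613 (limma, adjusted p = 1.03e-07) and 3.48-fold lower with ILMN_2929966, which stood at 9.35 ± 0.50 in ANTRAL, against 11.15 ± 0.15 in PREANTRAL (limma, adjusted p = 6.81e-07). Oas1e was 3.14-fold lower, at 6.75 ± 0.43 in ANTRAL, against 8.40 ± 0.22 in PREANTRAL (limma, adjusted p = 0.000156). Oas1c fell by 1.14 ± 0.21 (SE), to 5.36 ± 0.42 in ANTRAL with detection on 1 of 3 arrays, against 6.50 ± 0.33 in PREANTRAL (limma, adjusted p = 0.000287). Of the 7 probes other than Oas1f, 5 fell, Oas1g included, where 13.7% of all probes fell, and of all calls 47.6% were rises, or 65.4% with median scaling. Without PREANTRAL repeat 2 the differences were -2.01 and -1.76 (Oas1d), -1.57 (Oas1e) and -0.98 (Oas1c), and all passed. Without ANTRAL a, the array with the strongest oocyte signal, they were -2.20, -2.05, -1.88 and -1.37 in the same order.

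**Figure D2:**
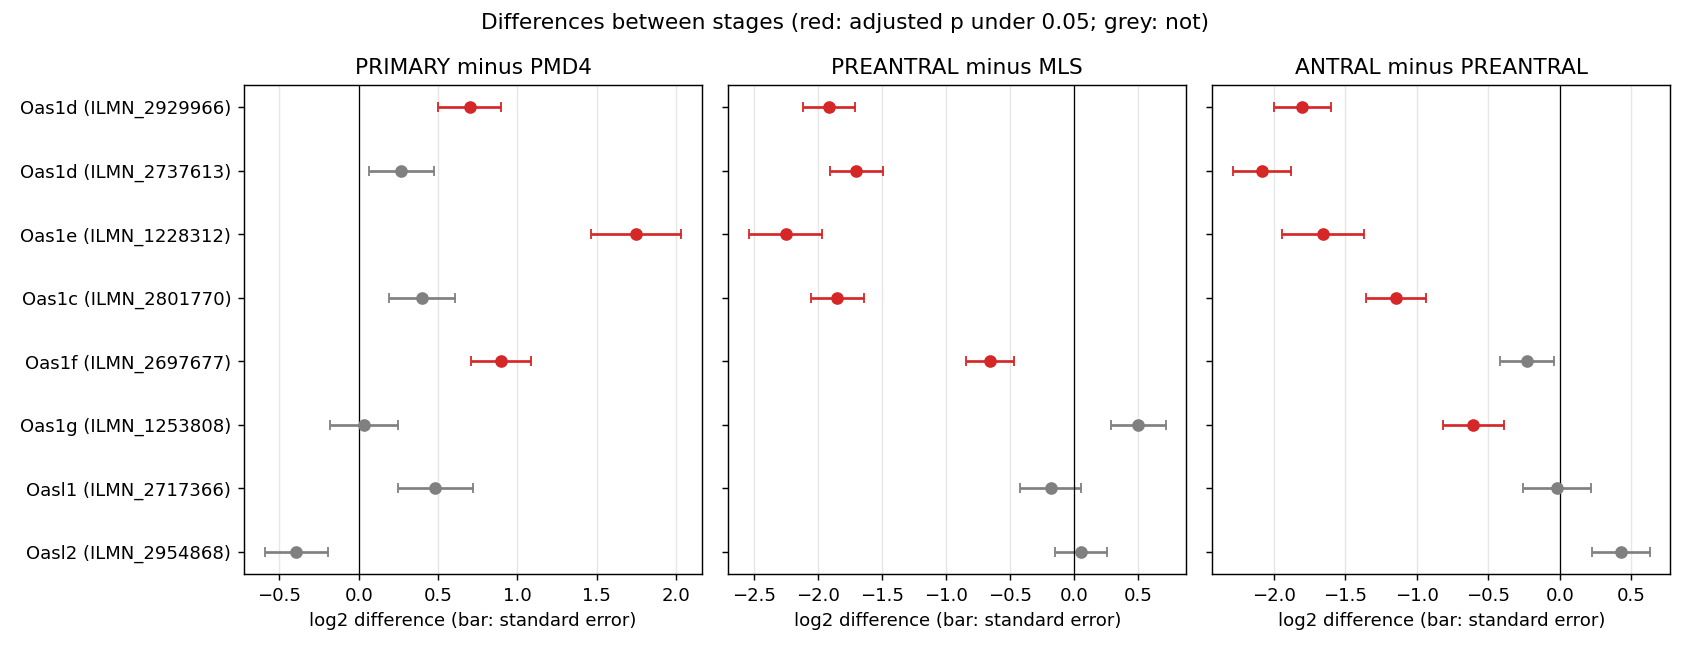
Log2 difference of each Oas probe, later stage minus earlier stage, with its standard error, for PRIMARY minus PMD4, PREANTRAL minus MLS and ANTRAL minus PREANTRAL, red where the adjusted p was under 0.05. In PRIMARY minus PMD4, Oas1e stands at 1.75, and in the later comparisons Oas1d, Oas1e and Oas1c lie between -1.14 and -2.25. The points and colours of Oas1f are a description, as its probe passed the detection rule only through PRIMARY, TLS and MLS.

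Over the whole course of follicle growth, from PRIMARY to ANTRAL, these were large falls. Oas1e was 31.4-fold lower in ANTRAL than in PRIMARY, Oas1d 26.7-fold and 20.6-fold lower, and Oas1c, detected on 1 of 3 ANTRAL arrays, 13.6-fold lower (limma, adjusted p between 1.02e-13 and 6.36e-12). Of the 7 probes other than Oas1f, these 4 fell, where 21.8% of all probes fell. Without PRIMARY repeat 3 the folds were 30.4 (Oas1e), 27.0 and 20.0 (Oas1d) and 13.4 (Oas1c). The size depended on how low signals were treated. In the authors' log2 values the differences were -3.52 (Oas1e), -3.24 and -4.19 (Oas1d) and -1.56 (Oas1c), against -4.97, -4.74, -4.36 and -3.77 after background correction, and without background correction that of Oas1c was -2.41. All passed in each case. In ANTRAL against PREANTRAL the authors' values gave -0.25 for Oas1c (limma, adjusted p = 0.0475), -0.77 for Oas1e (limma, adjusted p = 0.0158) and -1.03 for the ILMN_2737613 probe of Oas1d, and Oas1c differed by -0.50 without background correction.

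None of the 8 probes was called in PMD4 against PMD3, in TLS against PRIMARY, or in MLS against TLS, by limma at an adjusted p under 0.05. At an unadjusted p under 0.05 there were 1, 2 and 1, where 2041, 3134 and 2596 of all 15923 probes passed. Of all probes 1.01%, 5.92% and 2.56% were called in these comparisons. In TLS against PRIMARY, Oas1e differed by -0.77 ± 0.29 (SE; adjusted p = 0.125), and it passed without TLS repeat 3 (-1.01, adjusted p = 0.0415) and with median scaling (-1.03, adjusted p = 0.0203). One Oas1d probe, ILMN_2737613, passed in that comparison with median scaling alone (-0.80, adjusted p = 0.0328).

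The oocyte is a single cell in a follicle whose granulosa cells multiply. Oocyte markers moved beside the Oas1 paralogs. Of 16 markers measured, 14 fell in PREANTRAL against MLS, 12 fell in ANTRAL against PREANTRAL and 16 fell in ANTRAL against PRIMARY, with median differences of -1.75, -1.25 and -4.07. Of all probes 8.45%, 13.7% and 21.8% fell in these comparisons. The summed signal of the 16 markers ran from 122630 to 179309 on the PRIMARY arrays, from 49820 to 89998 in MLS, from 14217 to 25082 in PREANTRAL, and from 6731 to 18907 in ANTRAL. The 12 markers detected on all arrays, among them Gdf9, Bmp15, Zp1 and Zp3, were each 9.45- to 39.7-fold lower in ANTRAL than in PRIMARY, a range that holds the folds of Oas1d and Oas1e. The part of oocyte RNA in the falls of the paralogs was not tested.

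Taken against the mean of those 12 markers within each array, the paralogs moved much less. For Oas1c the difference from the markers stood between -3.62 and -3.02 in all 7 stage means. The -3.02 is the ANTRAL mean, where Oas1c was detected on 1 of 3 arrays, so that value rests partly on signals near background. For Oas1d it stood between 0.67 and 1.48 with ILMN_2929966, highest in MLS, and between -1.70 and -0.70 with ILMN_2737613. Oas1e had a wider range, with stage means of -2.95 ± 0.61 in PMD3, -2.37 ± 0.25 in PMD4, -0.98 ± 0.17 in PRIMARY, -1.15 ± 0.45 in TLS, -0.93 ± 0.08 in MLS, -1.39 ± 0.13 in PREANTRAL and -1.63 ± 0.13 in ANTRAL. Its PRIMARY arrays, between -1.18 and -0.88, lay above its PMD4 arrays, between -2.57 and -2.09. Of the 16 oocyte markers 6 rose and 3 fell in PRIMARY against PMD4, where 14.6% of all probes rose and 14.7% fell. Without PRIMARY repeat 3 the counts were 5 and 3. The median difference of the markers was 0.14, against 0.01 over all probes. Among the risers, Bmp15, an oocyte growth factor, differed by 2.75 in PRIMARY against PMD4, Mos, a kinase of meiotic arrest, by 2.12 and H1f8, the oocyte linker histone, by 1.89. Those that fell were Sohlh1 and Figla, regulators of early oocytes, at -3.39 and -2.38, and Dppa3, a maternal factor, at -1.12.

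**Figure D3:**
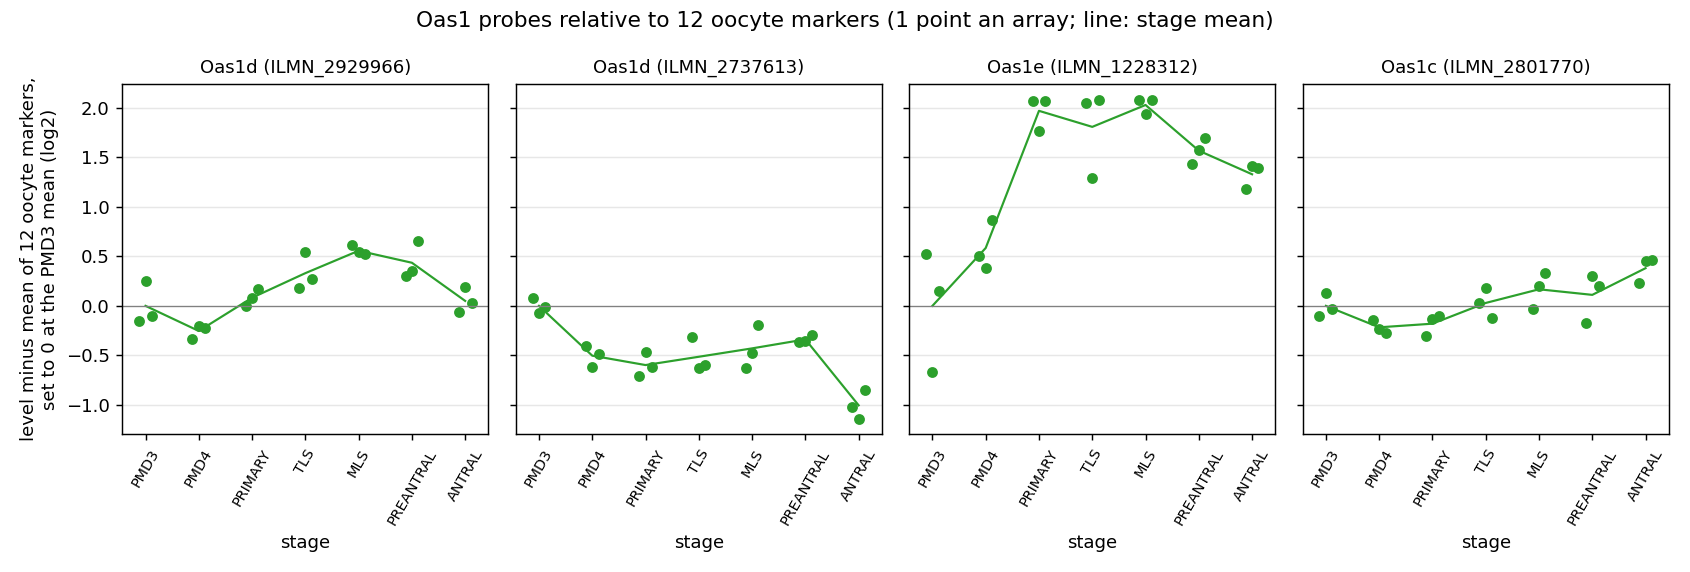
Level of each Oas1 probe minus the mean of 12 oocyte markers on the same array (log2), set to 0 at the PMD3 mean, by stage, with 1 point an array and a line through the stage means. Oas1e steps up in PRIMARY, where its mean before that shift was -0.98, against -2.37 in PMD4, while the stage means of Oas1c stay between -3.62 and -3.02 before it. In ANTRAL, Oas1c was detected on 1 of 3 arrays, and undetected points are not marked.

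Oas1f, an Oas1 paralog between Oas1b and Oas1h, had a narrow window. It was detected on 2 of 3 PRIMARY arrays, on 3 of 3 in TLS and in MLS, and on 0 in the other stages. Its levels were 5.88, 5.22 and 5.20 in PRIMARY, 5.45, 5.77 and 5.24 in TLS, and 5.41, 5.21 and 5.54 in MLS, and 4.35 to 4.70 in PMD3 and PMD4, 4.60 to 4.99 in PREANTRAL and 4.46 to 4.59 in ANTRAL. PRIMARY, TLS and MLS did not overlap with the rest. Because the rule needed detection on 3 arrays, the probe could enter only through the stages where it was high, and its differences are a description. As it was below background on every PMD4, PREANTRAL and ANTRAL array, they were taken to the lowest signal detected on each array. It was at least 1.09-fold lower in PREANTRAL than in MLS. PRIMARY stood 1.29-fold above PMD4 and 1.17-fold above ANTRAL in this way. The PRIMARY mean includes PRIMARY repeat 3, itself not detected, so these 2 values are not strict bounds. Its limma calls are likewise a description. That of the fall in PREANTRAL was lost in 7 of 30 alternative settings. Among them were those without MLS repeat 1 or 3 and without PREANTRAL repeat 1 or 3.

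Oas1g and Oasl1 stayed close to background. Oas1g ranged from 4.76 to 5.95 over all arrays, with stage means from 5.15 in ANTRAL to 5.76 in PREANTRAL, and did not pass the F test over the 7 stages (limma, adjusted p = 0.125), which 65% of all probes passed. It was called lower in ANTRAL than in PREANTRAL (-0.60, adjusted p = 0.0417), a call lost in 12 of 31 alternative settings. These include leaving out PRIMARY repeat 2, PREANTRAL repeat 1, PREANTRAL repeat 2 (-0.51, adjusted p = 0.149), ANTRAL repeat 1, ANTRAL a or ANTRAL b, and the replicate block (-0.93, adjusted p = 0.0657). Oasl1 ranged from 4.44 to 5.69, was detected on 1 array each of PMD3, PRIMARY, TLS and MLS, and did not pass the F test (limma, adjusted p = 0.422). Irf7, whose translation it restrains, was detected on 1 array.

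Oasl2 was measured on every array and did not follow the oocyte paralogs. Its levels were 8.62, 8.51 and 8.53 in PMD3, 8.19, 8.43 and 8.47 in PMD4, and 8.06, 8.19 and 7.65 in PRIMARY. They were 7.98, 7.41 and 7.70 in TLS, 7.60, 7.40 and 7.36 in MLS, 7.24, 7.64 and 7.64 in PREANTRAL, and 8.24, 8.07 and 7.49 in ANTRAL. The PMD3 arrays were above all others, and the lowest levels, which overlapped, were those of TLS, MLS and PREANTRAL. The probe passed the F test (limma, adjusted p = 0.000273) with stage means 1.10 apart, and in none of the 7 pairs tested. In ANTRAL against PREANTRAL it differed by 0.43 ± 0.20 (SE; adjusted p = 0.127), without PREANTRAL repeat 2 by 0.50 (adjusted p = 0.135), and without ANTRAL b by 0.65 (adjusted p = 0.0262). In ANTRAL against PRIMARY, where Oas1d fell by more than 4 on the log2 scale with both probes, it differed by -0.03 ± 0.20 (SE; adjusted p = 0.911).

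Interferon-stimulated genes were examined beside Oasl2, from a list of 36, of which 25 were measured. In ANTRAL against PREANTRAL 8 rose, where 12.5% of all probes rose, and 0 fell. In ANTRAL against PRIMARY 14 rose, where 23.6% of all probes rose, and 1 fell. Without PREANTRAL repeat 2 the first counts were 7 and 0, and without PRIMARY repeat 3 the second were 13 and 1. The median differences were 0.39 and 0.54, against -0.04 and 0.03 over all probes. Usp18, which removes Isg15 from proteins and damps interferon signalling, was not in this list but in that of interferon receptors and messengers. It was at least 3.01-fold higher in ANTRAL, at 6.85, against 5.16 in PREANTRAL (limma, adjusted p = 0.000112). In PREANTRAL it was below background on 3 of 3 arrays. Rsad2, the antiviral protein viperin, stood at 4.88 in PRIMARY, where it was below background on 3 of 3 arrays, at 6.13 in PREANTRAL and at 7.45 in ANTRAL, and was 2.49-fold higher in ANTRAL than in PREANTRAL (limma, adjusted p = 0.00239). Isg15, a ubiquitin-like modifier named here after its values were seen, was 1.68-fold higher in ANTRAL, at 6.86, against 6.11 in PREANTRAL (limma, adjusted p = 0.00585). In ANTRAL against PRIMARY it was 1.46-fold higher (limma, adjusted p = 0.0264), a call lost without PRIMARY repeat 3 (adjusted p = 0.0893). Its stage mean, like that of Oasl2, was highest in PMD3, at 6.91, and lowest in MLS, at 5.92. These lay within the spread of ANTRAL (6.86 ± 0.30) and of TLS (5.96 ± 0.32). Of the other measured list genes named, Rsad2 and Gbp2 were lowest in PRIMARY, Bst2 in PMD3 and Lgals3bp in PMD4. Mx1 and Ifit1, standard interferon-stimulated genes, were detected on 0 arrays.

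In PRIMARY against PMD4 the list was mixed, with 3 rises and 5 falls, or 1 and 5 without PRIMARY repeat 3, where 14.6% of all probes rose and 14.7% fell. Gbp2, an interferon-induced GTPase, was 7.86-fold lower in PRIMARY, at 6.13, against 9.10 in PMD4, and 3.12-fold higher in TLS than in PRIMARY. Lgals3bp, a secreted glycoprotein, was 1.70-fold higher in PRIMARY than in PMD4. Bst2, which tethers virus particles, passed the F test and none of the pairs. Leukocyte markers, which could bring RNA of immune cells, moved in the same comparisons. Of 7 measured, 7 fell in PRIMARY against PMD4, where 14.7% of all probes fell. In ANTRAL against PREANTRAL 5 rose, where 12.5% of all probes rose, and in ANTRAL against PRIMARY 6 rose, where 23.6% did. The summed signal of these markers ran from 2711 to 3696 in PMD4, from 690 to 916 in PRIMARY, from 708 to 860 in PREANTRAL and from 1332 to 1923 in ANTRAL. Of 8 endothelial markers measured, 8 fell in PRIMARY against PMD4, 4 rose in ANTRAL against PREANTRAL and 8 rose in ANTRAL against PRIMARY. Other cell types moved there too. In PRIMARY against PMD4, 8 of 10 stromal and smooth muscle markers fell and 1 rose, and 5 of 6 surface epithelium markers fell. In ANTRAL against PREANTRAL, 4 of 7 theca and interstitial markers rose and 0 fell. Ptprc, a general leukocyte marker, and Fcer1g, also on the leukocyte list, were detected on 0 arrays. The part of such cells in the levels of Oasl2 and of the list was not tested.

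**Figure D4:**
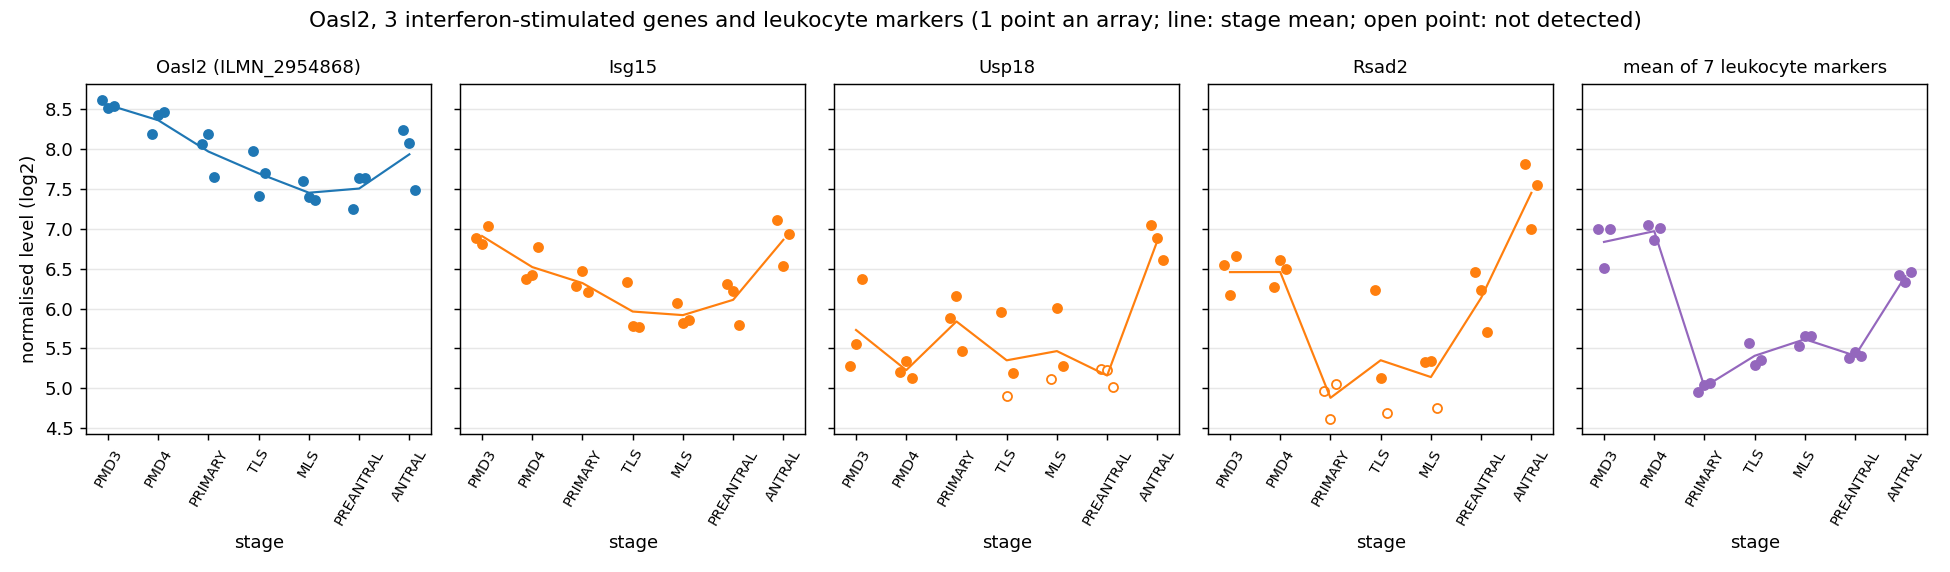
Normalised level (log2) of Oasl2, Isg15, Usp18 and Rsad2 and the mean level of 7 leukocyte markers on each array, by stage, with lines through the stage means and open points where a probe was not detected. The stage means of Oasl2 and Isg15 are lowest in MLS, where the arrays overlap those of TLS and PREANTRAL. Usp18 and Rsad2 are highest in ANTRAL, and the leukocyte markers are lowest in PRIMARY.

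Pde12 and Abce1 were measured as other genes of the pathway. Pde12, which degrades 2'-5' oligoadenylates, was 1.49-fold higher in PRIMARY, at 8.29, against 7.72 in PMD4 (limma, adjusted p = 0.0205), a call lost without PRIMARY repeat 3 (adjusted p = 0.0803), and passed in no other pair. Abce1, a protein of ribosome recycling, had stage means from 6.45 in PMD3 to 7.18 in PREANTRAL and passed the F test narrowly (limma, adjusted p = 0.0491) and no pair.

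The probes most like each member over the 21 arrays were named by Pearson correlation of log2 levels, as a description of points that share stages and oocyte content. For Oas1c they were Zp3 (r = 0.992), E2f5, Zp1, Ccno and Mbl2, and for Oas1d with ILMN_2929966 Ccno (r = 0.995), Tcl1, Npm2, Wt1 and Map3k6. For Oas1d with ILMN_2737613 they were Ooep (r = 0.990), Tmem108, Zp3, Pramel13 and Dppa5a. Zp1 and Zp3 encode proteins of the zona pellucida around the oocyte, and Ooep a protein of the subcortical maternal complex. For Oas1e they were Cdh1 (r = 0.990), Kpna7, Fbxw15, Fbxw24 and Sall4, a list that shares no gene with those of Oas1c and Oas1d. The lists of ILMN_2929966 and ILMN_2737613, both probes of Oas1d, share no gene with each other either. The absence of shared genes is thus not particular to Oas1e. For Oas1f they were Eif4e3 (r = 0.927), Otub2, Slc9b2, Pdzph1 and Oosp3, and for Oasl2 Abat (r = 0.882), Tmem14c, Stradb, Hoxa5 and Irx5. Among the members themselves, Oas1c correlated at 0.983 and 0.985 with the Oas1d probes and at 0.881 with Oas1e, and Oasl2 correlated at -0.04 with Oas1e and at 0.16 and 0.32 with the Oas1d probes.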

How the data were processed

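Per the file headers, the deposited signal table gives intensity per probe, the average bead signal, neither background corrected nor normalised, beside which stands a detection p-value. A second deposited table holds the authors' log2 values for 23286 probes, with column medians of 7.71 to 7.74. The submitters' processing notes name limma, and its settings are not given in the sources used here. The 2 detection columns of antral arrays that share a name were not used. Those arrays took the detection p of probes of the same signal rank on the 19 other arrays, which shared 96.4% to 99.9% of calls when tested on them. Probe genes came from the platform annotation, in which 21857 probes have 1 symbol, 0 several and 3840 none.

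The neqc function (limma 3.58.1, R 4.3.3, offset 16) corrected background, normalised by quantiles and took log2. The 15923 probes detected (p under 0.05) on at least 3 arrays entered a limma fit with a mean per stage, tested two-sided with Benjamini-Hochberg adjustment over all probes, at a threshold of 0.05, for 7 pairs of stages and by a moderated F test. The fit was tested on simulated data. The detection by rank, the rescaled shifts between paralogs, and the gene lists and named genes without the arrays of doubtful label were chosen after seeing the data. Samples were grouped by title. The members and lists were chosen with earlier results of these data known. Every Oas probe and measured pathway partner is named. Of the interferon, sensor and oocyte lists, up to 4 genes past the F test with the largest range of stage means are named. The 5 most similar genes per member are named as well. Isg15, Irf7, the oocyte markers Gdf9, Bmp15, Zp1, Zp3 and Mos, and list genes detected on 0 arrays were named outside this rule. For the other cell types counts or summed signals are given. Probe sequences were not used here, so shared hybridisation of paralogs was not tested.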

Additional observations from a re-analysis of the deposited data

How the results depend on the processing

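Across 31 alternative settings, the 33 results for single Oas probes gave 1003 values, of which 979 kept direction and side of the threshold, 19 lost and 5 gained the threshold, and 0 turned direction. The pair results among the 33 were only those that differed by at least 2 standard errors in the main fit. The F tests have no direction. That 0 turned direction therefore says little about the smaller differences, which were left out. The results of Oas1f among the 33 are a description. Apart from the calls named in the report, Oas1f lost its call in PREANTRAL against MLS in 7 settings. Oasl1 passed in PRIMARY against PMD4 with the variance of these 2 stages alone (limma, 0.48, adjusted p = 0.0296). In those stages Oasl1 was detected on 1 PRIMARY array and on 0 PMD4 arrays, so this is a difference near background. Numbers of changed probes moved more. With the variance of the 2 stages alone, 85 probes changed in PMD4 against PMD3, against 161, 203 in TLS against PRIMARY, against 943, and 14 in MLS against TLS, against 408. With median scaling, 265 changed in MLS against TLS, and all probes shifted by -0.14 in TLS against PRIMARY. With 1 probe a gene, 4681 changed in ANTRAL against PRIMARY, against 7241, and 6735 over the 7 stages, against 10357, since fewer probes are tested. Without PMD3 repeat 2 and TLS repeat 2 together, 92 changed in PMD4 against PMD3. With single arrays left out, the counts ran from 52 to 255 in PMD4 against PMD3, 3732 to 5006 in PRIMARY against PMD4, 480 to 1412 in TLS against PRIMARY, 140 to 678 in MLS against TLS, 1549 to 2559 in PREANTRAL against MLS, 3189 to 4566 in ANTRAL against PREANTRAL, 6249 to 7608 in ANTRAL against PRIMARY and 9686 to 10673 over the stages. Except for the count with 1 probe a gene, the cause was not tested. With the repeat number as a replicate block, without the unnumbered antral arrays, 2289 probes changed in ANTRAL against PREANTRAL, against 4176. The repeat numbers did not pair the samples, with a median correlation of deviations of 0.03 over 51 pairs of the same number and -0.01 over 102 others. Signals near background limit Oas1f, Oas1g and Oasl1.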

Other observations

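The receptors and messengers of interferon were measured beside the Oas genes. Of 14 such genes measured, 4 rose, Usp18 included, and 1 fell in ANTRAL against PREANTRAL, where 12.5% of all probes rose and 13.7% fell. Without PREANTRAL repeat 2 the counts were 2 and 1. In ANTRAL against PRIMARY 5 rose and 3 fell, where 23.6% of all probes rose and 21.8% fell, and 5 rose and 2 fell without PRIMARY repeat 3. Il10rb, a receptor chain shared by interleukin 10 and interferon lambda, was 2.58-fold higher in ANTRAL, at 7.83, against 6.46 in PREANTRAL (limma, adjusted p = 2.44e-06). Jak1, the kinase bound to interferon receptors, was 2.63-fold lower in ANTRAL, at 6.34, against 7.73 in PREANTRAL (limma, adjusted p = 0.00299). Jak2, a kinase of the interferon gamma receptor, was 3.58-fold lower in ANTRAL, at 8.60, against 10.44 in PRIMARY. Ifnar1, a chain of the type I interferon receptor, was detected on 0 arrays. Of 6 measured sensors of foreign nucleic acid, limma called 0 in each of the 7 pairs, where it called 161 to 7241 of all 15923 probes. At an unadjusted p under 0.05 there were 0 to 2, where 2041 to 8194 of all 15923 probes passed. Of the sensors Adar, which edits double-stranded RNA, alone passed the F test (limma, adjusted p = 0.0338), which 65% of all probes passed. Ifih1 and Tlr3, sensors of double-stranded RNA, were detected on 0 arrays.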
